A study of Homo sapiens with 10 samples.

Results

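The metallothioneins are small cysteine-rich proteins of the cytosol and nucleus, and 7 of their genes (MT2A, MT1E, MT1M, MT1A, MT1F, MT1G and MT1X) are described here together with MTF1, the zinc-sensing transcription factor that induces them. The 8 genes were taken by symbol from 23234 genes present in all 5 tables of the study. They were chosen with their levels and ratios in these libraries already known. Values on which the choice rests are therefore given as a description, with no test.

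RNA sequencing was done on 3 human lung adenocarcinoma cell lines, with 1 library in each of 10 groups. PC9, which carries an activating EGFR mutation, and PC9M, which the labels describe as spreading more to bone and brain, were each grown in 4 ways: with DMSO, with GNF5, with scrambled shRNA and with shRNAs against both ABL1 and ABL2. H358, another lung cancer line, was grown with DMSO and with GNF5 only. GNF5 is an allosteric inhibitor of the ABL kinases and was given for 72 h. The labels state the dose as 20 mM in PC9M and 10 mM in both H358 and PC9, and the files offer no check of that unit. All shRNA cultures were transduced in the presence of 8 µg/mL polybrene, which the labels do not name for the DMSO and GNF5 cultures. How PC9M was derived, how many shRNAs were used and whether lines are clonal is not given in the sources used here.

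Metallothioneins bind zinc, copper and cadmium through clusters of cysteine thiolates, buffer free zinc and take up toxic metals. When zinc in the cell is high, MTF1 enters the nucleus and binds metal response elements in the promoters of metallothionein genes and of the zinc exporter gene SLC30A1. Glucocorticoids, oxidants and cytokines also induce MT2A and several MT1 genes in epithelial cells.

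The 7 genes lie in 1 cluster on chromosome 16, between position 55199979 (the start of MT2A) and position 55275609 (the end of MT1X) of the hg18 genome, a span of 75631 bases. MT1E starts at 55217086, MT1M at 55224035, MT1A at 55230079, MT1F at 55249356, MT1G at 55258154 and MT1X at 55273883. MTF1 is on chromosome 1 from 38047826 to 38097879. In the GENCODE release 29 annotation of GRCh38, each of the 7 principal transcripts has 3 exons and a coding sequence of 183 bases without the stop codon, and MT1G alone is on the minus strand. Each coding sequence holds 20 cysteine codons among 61 codons.

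The coding sequences of the 4 members with the highest FPKM in any library are shown. They make plain how alike the genes are whose levels are compared. Cysteine codons are in capitals, and the strand is that of the messenger RNA.
MT2A: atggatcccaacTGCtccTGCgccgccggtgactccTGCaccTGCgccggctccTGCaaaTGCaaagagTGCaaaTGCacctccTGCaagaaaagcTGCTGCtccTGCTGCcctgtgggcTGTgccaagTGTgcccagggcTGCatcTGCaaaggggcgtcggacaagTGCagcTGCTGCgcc
MT1X: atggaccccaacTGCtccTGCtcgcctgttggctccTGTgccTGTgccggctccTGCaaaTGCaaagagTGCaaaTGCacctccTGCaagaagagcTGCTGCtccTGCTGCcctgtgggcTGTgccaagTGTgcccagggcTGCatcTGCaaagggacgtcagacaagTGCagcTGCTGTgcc
MT1E: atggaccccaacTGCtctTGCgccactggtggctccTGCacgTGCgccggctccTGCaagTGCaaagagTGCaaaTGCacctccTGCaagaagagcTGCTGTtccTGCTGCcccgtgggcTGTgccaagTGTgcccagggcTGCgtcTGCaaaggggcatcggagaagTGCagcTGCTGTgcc
MT1F: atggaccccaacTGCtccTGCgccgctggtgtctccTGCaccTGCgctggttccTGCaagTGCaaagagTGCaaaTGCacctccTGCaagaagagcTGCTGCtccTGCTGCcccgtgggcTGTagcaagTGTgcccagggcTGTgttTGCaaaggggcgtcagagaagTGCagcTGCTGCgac

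Over the 21 pairs of the 7 genes, 88.5% to 95.1% of aligned coding bases were identical, with a median of 91.8%. MT2A and MT1G were the closest pair, with 174 of 183 bases alike, and MT1F and MT1X the most distant, with 162 of 183. Whole transcripts differ more than their coding parts. Of all 50-base stretches of a transcript, 16.8% in MT1G and 14.7% in MT1X also occurred unchanged in another of the 7 transcripts, against 4.90% or less in the other 5. For MT1E this was 3 of 655 stretches. With 25-base stretches the shares ran from 7.96% in MT1F to 26.4% in MT1G, with 21.1% in MT1X and 20.2% in MT1A. The read length and the treatment of reads with several matches are not given in the sources used here. Which of the separate values are the least certain therefore cannot be told, and the sum over the 7 genes is given beside them.

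Promoters of 3 of the 8 genes, MT2A, MT1X and MTF1, were in the table of RefSeq promoters, which holds 250 bases before and 50 after a transcription start. Those of MT2A (chr16:56608334-56608633, plus strand, GRCh38.p14) and MT1X (chr16:56682220-56682519, plus strand, GRCh38.p14) are shown because these genes made up most of the metallothionein signal. The core of the metal response element, TGCACNC or TGCGCNC, was searched on both strands, and its matches are in capitals.
MT2A: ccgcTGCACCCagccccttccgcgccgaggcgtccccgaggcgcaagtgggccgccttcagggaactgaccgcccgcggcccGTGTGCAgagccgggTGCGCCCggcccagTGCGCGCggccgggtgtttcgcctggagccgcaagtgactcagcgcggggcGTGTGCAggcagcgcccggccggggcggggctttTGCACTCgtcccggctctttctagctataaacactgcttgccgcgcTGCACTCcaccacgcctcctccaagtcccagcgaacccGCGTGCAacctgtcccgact
MT1X: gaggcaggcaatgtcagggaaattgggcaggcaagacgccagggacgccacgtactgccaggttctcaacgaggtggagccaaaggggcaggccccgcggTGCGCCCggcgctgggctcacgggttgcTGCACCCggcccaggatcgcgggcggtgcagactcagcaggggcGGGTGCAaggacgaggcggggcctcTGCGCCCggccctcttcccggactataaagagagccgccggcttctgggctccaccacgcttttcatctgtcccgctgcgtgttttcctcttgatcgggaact

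The MT2A promoter held 8 matches, 5 on the strand shown and 3 on the other, with no overlap between them. The MT1X promoter held 4 matches, 3 on the strand shown and 1 on the other, also with no overlap. Of 35116 promoters in the table, 29.6% held at least 1 match, 0.601% held at least 4, and 7 promoters (0.0199%) held at least 8. One of the 7 is the promoter of MT1H, a metallothionein gene of the same cluster that is no member: it also held 8 matches, and MT1H was listed at no more than 0.211 FPKM in any library. The MTF1 promoter held 0 matches. A match is a run of letters and not a measured binding site.

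Levels of the metallothioneins other than MT1E differed far more between PC9 and the other lines than between treatments of a line. FPKM is a read count scaled to transcript length and library size. It was scaled by the authors within each of the 5 tables separately, so levels set across tables rest on that scaling. MT2A, the most abundant member, was listed at 68.4 FPKM in PC9 with DMSO, 115 with GNF5, 112 with scrambled shRNA and 223 with the ABL1/ABL2 shRNAs. In PC9M it was listed at 1694, 1238, 1307 and 1995 FPKM in the same order, and in H358 at 1796 with DMSO and 1434 with GNF5. Every PC9M library was thus above every PC9 library, the lowest PC9M value being 5.56 times the highest PC9 value, while PC9M and H358 overlapped. In rank MT2A stood between place 333 and place 1203 among the 23234 genes of the PC9 libraries, and between place 19 and place 56 in those of PC9M and H358.

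MT1X, the only MT1 gene among the members at 1 FPKM or more in all 10 libraries, was listed in PC9 at 13.5 FPKM with DMSO, 44.3 with GNF5, 24.1 with scrambled shRNA and 35.8 with the ABL1/ABL2 shRNAs. The PC9M values were 386, 225, 367 and 421 FPKM in that order, and the H358 values 480 with DMSO and 685 with GNF5. Here the 3 lines did not overlap, with PC9 lowest and H358 highest. The share of all genes that part the 3 lines without overlap was not counted. The gap between PC9M and H358 was narrow, at 421 against 480 FPKM, less than the range within PC9M.

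MT1E separated H358 from the other lines. It was listed at 515 FPKM in H358 with DMSO and 260 FPKM with GNF5, and at 0 in all 8 PC9 and PC9M libraries. At least 50 FPKM in both H358 libraries and 0 in the other 8 was listed for 14 of 14523 genes (0.0964%), MT1E among them. The 14523 are all genes with at least 1 FPKM in any library, not only those abundant in H358. MT1E was chosen with these levels known, so the count describes the choice. An entry of 0 in these tables can be a failed estimate. The histone gene H3F3A, for example, was listed at 0 in 4 of the 8 PC9 and PC9M libraries and at 9.30 FPKM in another. MT1E shares few long stretches with the other members, as given above, but the other metallothionein entries of the cluster were not compared. Whether the 0 of MT1E means that no reads fell there cannot be read from the tables.

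MT1F was listed at 0.664, 1.05, 0.675 and 1.96 FPKM in PC9 with DMSO, GNF5, scrambled shRNA and ABL1/ABL2 shRNAs. In PC9M it stood at 34.6, 36.5, 40.7 and 35.9 FPKM, and in H358 at 46.7 with DMSO and 44.1 with GNF5. It was the steadiest metallothionein within PC9M, with its highest library 1.18 times its lowest, against 1.61 times for MT2A and 1.87 times for MT1X.

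The rarer members were all lowest in PC9 but differed in the order of the other lines. MT1G ran from 0.144 to 0.543 FPKM in PC9, from 4.21 to 6.06 in PC9M and from 13.2 to 13.5 in H358. MT1A was higher in PC9M than in H358, with 3.17 to 6.30 FPKM in PC9M but 0.677 and 1.10 in H358, and at most 0.0345 in PC9. MT1M had the same order, with 0.146 to 0.261 FPKM in PC9M and 0.0731 and 0.117 in H358, but stayed under 1 FPKM in all 10 libraries, so no ratio of it is read.

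MTF1 differed little beside the metallothioneins. It ran from 3.29 to 4.46 FPKM in PC9, from 5.01 to 6.05 in PC9M and from 4.46 to 4.51 in H358. The PC9M and PC9 ranges did not overlap, but their medians were 1.53-fold apart, against 13.2-fold for MT2A, 12.6-fold for MT1X and 41.8-fold for MT1F.

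**Figure D1:**
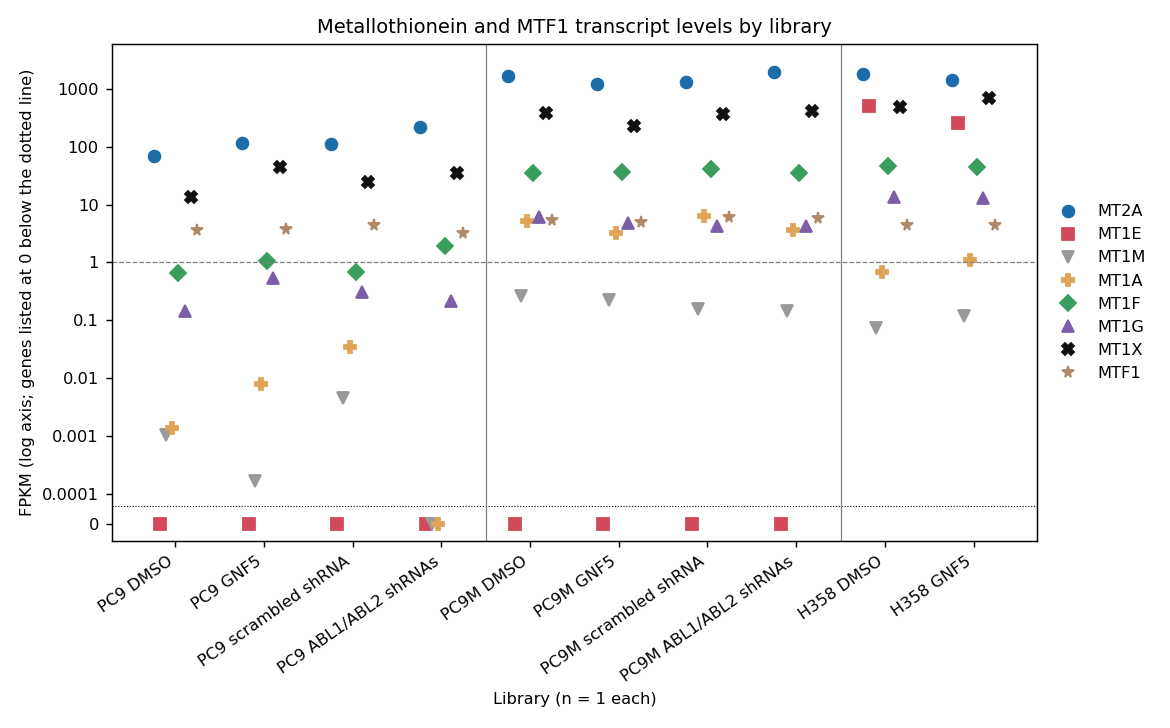
FPKM (log axis) of the 7 metallothioneins and MTF1 in each of the 10 libraries, 1 point per gene and library, with genes listed at 0 under the dotted line and a dashed line at 1 FPKM. MT2A lies between 68.4 and 223 in PC9 and between 1238 and 1995 in PC9M, MT1E is at 0 outside H358, and MTF1 stays between 3.29 and 6.05 throughout.

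Summed over the 7 genes, the level was 82.7, 161, 137 and 261 FPKM in PC9 with DMSO, GNF5, scrambled shRNA and ABL1/ABL2 shRNAs. In PC9M the sum was 2127, 1508, 1726 and 2460 FPKM, and in H358 2851 with DMSO and 2437 with GNF5. The medians of PC9M and PC9 were 12.9-fold apart. The 4 libraries of PC9M lay above the 4 of PC9 for 28.3% of 13497 genes, and with medians at least 10-fold apart for 3.16%. They lay below for 23.7%, and at least 10-fold so for 2.62%. Among the members, all but MT1E showed no overlap with PC9M higher, and MT2A, MT1A, MT1F, MT1G and MT1X did so at 1 FPKM or more and at least 10-fold. MT1M and MT1E, under 1 FPKM in PC9 and PC9M, are not among the 13497 genes. Those levels are what the members were chosen on, so the counts describe the choice. Over the same 13497 genes the median log2 ratio of PC9M over PC9 was 0.03. The levels are those of whole cultures, in which a larger share of expressing cells and more RNA per cell cannot be told apart.

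The difference between PC9M and PC9 was compared with that of genes beside the cluster. Of the 10 other genes within 500 kb with at least 1 FPKM, in PC9M 2 stood past 2-fold upward and 1 downward, with a median log2 ratio of 0.25. The nearest on the MT2A side, BBS2, a subunit of the cargo complex of the primary cilium, stood at 1.03, and the nearest on the MT1X side, the nuclear pore gene NUP93, at -0.17. The highest neighbour was the mRNA 3′ processing factor NUDT21 at 1.75 and the lowest the G protein gene GNAO1 at -1.10. MT2A, MT1F and MT1X stood at 3.71, 4.32 and 3.61 on this log2 scale, and MT1A and MT1G at 2.43 and 2.13, each above every neighbour. MT1DP, a metallothionein entry of the cluster that is no member, stood at 0.93, within the range of the neighbours. The members were chosen with these levels known, so the contrast describes the choice.

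**Figure D2:**
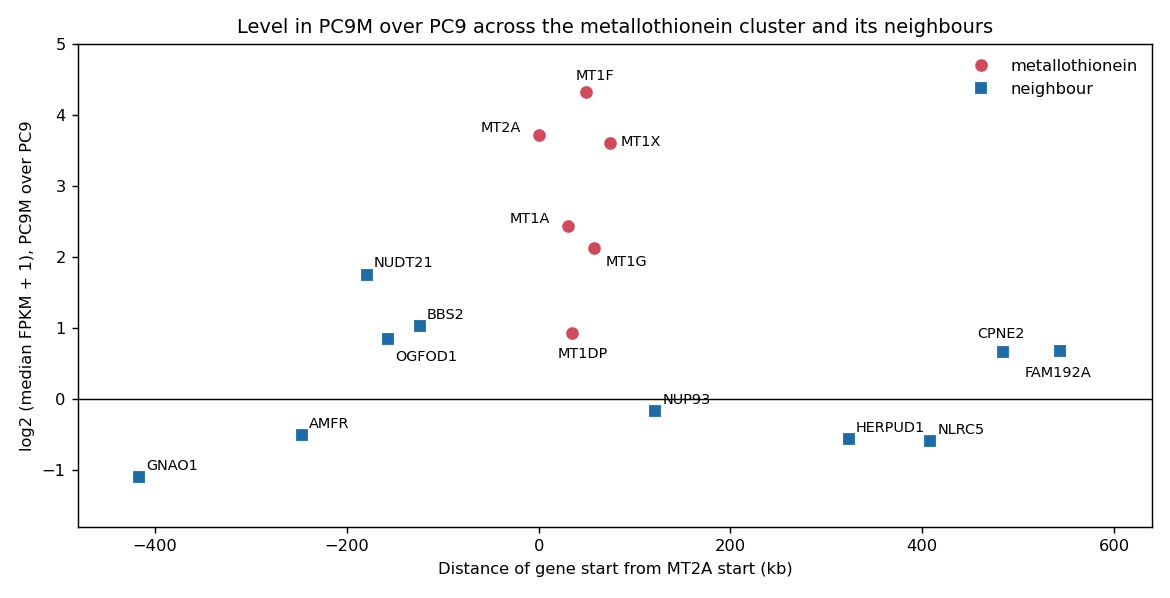
Log2 ratio of the median FPKM plus 1 of 4 PC9M over 4 PC9 libraries, against the distance of each gene's start from that of MT2A in kb, for metallothioneins (circles) and other genes (squares) with at least 1 FPKM. Neighbours lie between -1.10 and 1.75, whereas MT2A, MT1F and MT1X lie between 3.61 and 4.32. MT1A lies at 2.43, MT1G at 2.13 and MT1DP at 0.93.

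Treated and control libraries were compared within each table as the log2 ratio of FPKM plus 1, and a difference of at least 2-fold was counted for genes with at least 1 FPKM in either library. With the shRNAs the ABL1 transcript stood at -2.38 in PC9 and -1.33 in PC9M, and that of ABL2 at -1.63 and -0.63. With 1 library per group the ratios have no error and no test.

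With GNF5 in PC9 the abundant metallothioneins were higher. MT1X stood at 1.64, a 3.28-fold difference, MT2A at 0.74 and the sum at 0.95. MT1F stood at 0.30 and reached 1 FPKM in the GNF5 library only, while the other 4 genes stayed under 1 FPKM. MT1X was the only member at least 2-fold apart, against 5.17% of all genes past 2-fold upward and 6.83% downward. The control cultures of PC9 were themselves apart: scrambled shRNA was 1.64-fold above DMSO for MT2A and 1.79-fold above it for MT1X, across tables and not centred. These are log2 ratios of 0.70 and 0.79. Centred on the median of all genes, the median of the 2 was 0.58, so part of this gap lay in all genes. In listed FPKM the GNF5 library was level with the scrambled library for MT2A, at 115 against 112. For MT1X it was not, at 44.3 against 24.1 FPKM. Between those control libraries 7.28% of genes lay past 2-fold upward and 10.3% downward once centred on their median, and no member did.

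With GNF5 in PC9M most of the family was lower. Of 5 metallothioneins at 1 FPKM or more, MT1X stood at -0.78, MT1A at -0.56, MT2A at -0.45 and MT1G at -0.29, while MT1F stood at 0.07. The sum stood at -0.50. None was 2-fold apart, against 1.58% of all genes past 2-fold upward and 1.81% downward. The scrambled library of PC9M was also below the DMSO library for MT2A, 1307 against 1694 FPKM, and close to it for MT1X, 367 against 386 FPKM. No member was 2-fold apart between these controls, against 1.62% of genes upward and 1.24% downward after centring. GNF5 thus lay on opposite sides of its control for MT1X in PC9 and PC9M, at labelled doses of 10 and 20 mM, a difference that was not tested.

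With GNF5 in H358 the members went different ways. MT1E stood at -0.98, from 515 to 260 FPKM, and MT2A at -0.32, whereas MT1X stood at 0.51, from 480 to 685 FPKM. MT1F at -0.08 and MT1G at -0.03 lay near 0, MT1A at 0.32 passed 1 FPKM in the GNF5 library only, and the sum stood at -0.23. None of these 6 reached 2-fold, against 1.12% of all genes past 2-fold upward and 2.40% downward, and the median over all genes was -0.19. The authors' deposited table marks MT1E here as significant, with a q-value of 0.0378, and no member in the other 4 tables. Of the genes tested there, that table marks 0.709% as significant, and the others 0.259% with GNF5 in PC9, 0.481% with GNF5 in PC9M, 0.739% with the shRNAs in PC9 and 0.936% with them in PC9M. That value compares 1 library with 1 library on the ratio by which the genes were chosen.

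With the ABL1/ABL2 shRNAs in PC9 the abundant metallothioneins were again higher. MT2A stood at 0.98, from 112 to 223 FPKM, MT1X at 0.55 and the sum at 0.92. MT1F stood at 0.82 and passed 1 FPKM in the shRNA library only, at 1.96 against 0.675. MT2A was just short of 2-fold, so none was counted, against 1.21% of all genes past 2-fold upward and 1.92% downward. With the ratios centred on the median of all genes MT2A stood at 1.08 and was counted. MTF1 stood at -0.35 in this pair, from 4.46 to 3.29 FPKM, and its other 4 ratios lay between -0.07 and 0.04.

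With the shRNAs in PC9M MT2A stood at 0.61, from 1307 to 1995 FPKM, and MT1X at 0.20. MT1A stood at -0.64, MT1F at -0.18 and MT1G at -0.01, and the sum at 0.51. None of the 5 was 2-fold apart, against 1.01% of all genes past 2-fold upward and 0.808% downward. MT2A was thus higher than scrambled in both shRNA pairs, and MT1A lower in both comparisons of PC9M. Across tables, the DMSO library of PC9M lay between the scrambled and shRNA libraries for MT2A, at 1694 FPKM. The DMSO library of PC9 lay below both, at 68.4 FPKM. The GNF5 and shRNA comparisons have separate control libraries.

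**Figure D3:**
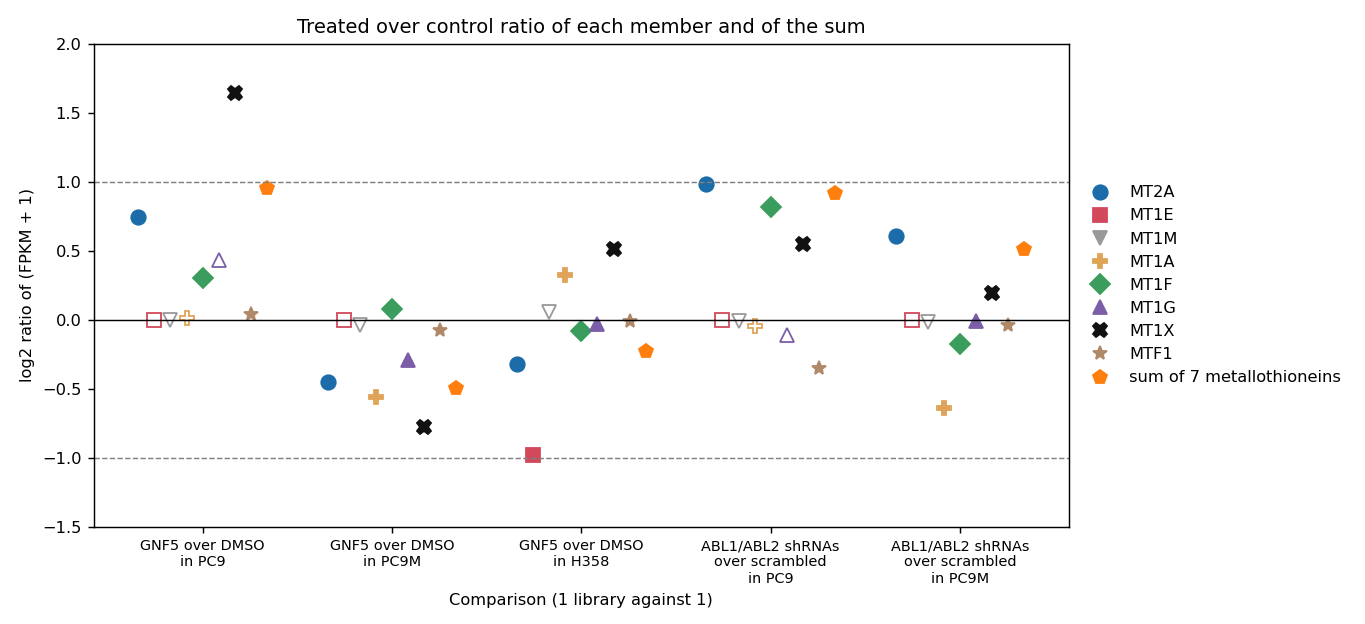
Log2 ratio of FPKM plus 1, treated over control, for each member and for the sum of 7 metallothioneins in the 5 comparisons, 1 library against 1, with open symbols for genes under 1 FPKM in both libraries and dashed lines at a 2-fold difference. MT1X with GNF5 in PC9, at 1.64, is the only filled point beyond 2-fold, and MT1E in H358 (-0.98) and MT2A with the shRNAs in PC9 (0.98) lie just inside.

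Shares of the sum do not depend on the scaling between libraries. MT2A made up 71.5% to 85.4% of the metallothionein FPKM in PC9, 75.7% to 82.1% in PC9M, and 63.0% and 58.8% in H358 with DMSO and GNF5. MT1X went from 16.3% with DMSO to 27.5% with GNF5 in PC9 and from 16.8% to 28.1% in H358, but from 18.2% to 14.9% in PC9M. With the shRNAs its share was lower than with scrambled shRNA in both lines, 13.7% against 17.6% in PC9 and 17.1% against 21.3% in PC9M. MT1E made up 18.0% in H358 with DMSO and 10.7% with GNF5. In H358 MT1X went from below to above MT1E at a nearly constant MT1 sum of 1055 FPKM with DMSO and 1003 FPKM with GNF5. These shares come from single libraries and carry no error.

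**Figure D4:**
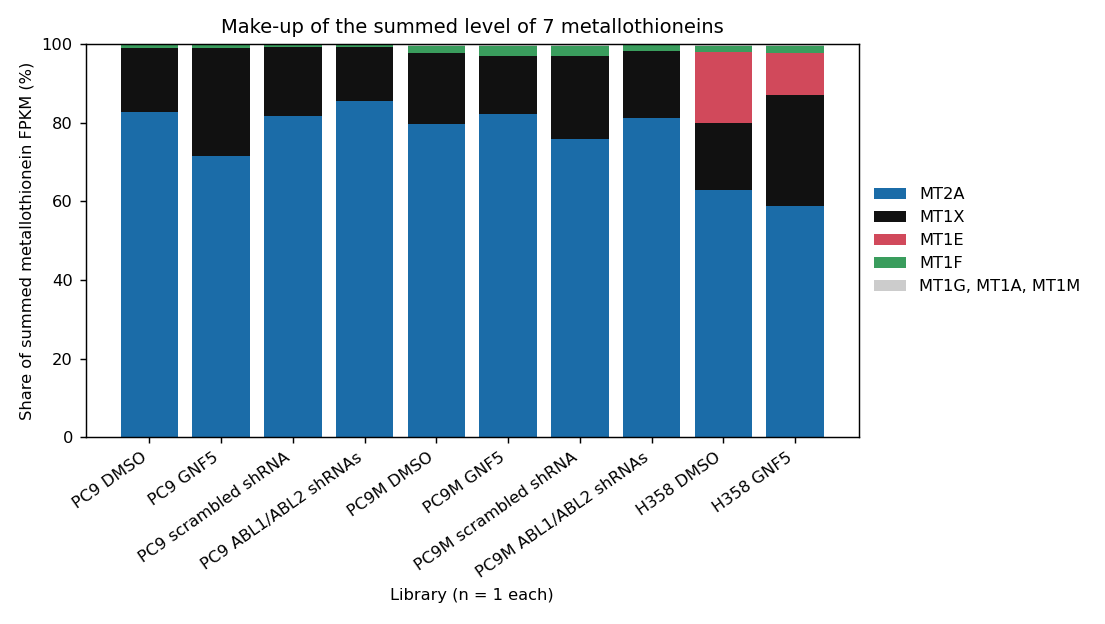
Share of the summed FPKM of 7 metallothioneins held by each gene in each library, in percent, with MT1G, MT1A and MT1M pooled. MT2A is the largest part in every library, MT1E appears in H358 only, and the MT1X part is 27.5% in PC9 and 28.1% in H358 with GNF5.

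Genes of metal handling were counted in the same way. Over lists of zinc exporters, zinc importers, copper handling, iron handling, glucocorticoid response and metal and thiol stress, 53 of 66 genes reached 1 FPKM with GNF5 in PC9, and 2 of these stood past 2-fold upward and 4 downward, beside 5.17% and 6.83% of all genes. Of 54 or 55 genes in each other comparison, there was 1 higher with GNF5 in PC9M and 1 higher in H358, 0 with the shRNAs in PC9 and 1 lower with them in PC9M. Counts this small are not set apart from those of all genes. SLC30A1, the zinc exporter that MTF1 also induces, had GNF5 ratios of 0.22 for PC9, -0.27 for PC9M and -0.17 for H358. With the shRNAs it stood at -0.87 in PC9 and -0.13 in PC9M. Its level was 30.3, 35.3, 21.7 and 11.4 FPKM in PC9 with DMSO, GNF5, scrambled shRNA and ABL1/ABL2 shRNAs, and 13.1, 10.6, 14.9 and 13.5 FPKM in PC9M. In H358 the level was 10.56 FPKM with DMSO and 9.30 with GNF5, below the lowest PC9M value of 10.63. PC9 and PC9M overlapped for SLC30A1, unlike for MT2A, but only through the PC9 library with ABL1/ABL2 shRNAs. The other PC9 libraries lay above all of PC9M, the reverse of the order for MT2A. SLC30A1 was named after its values were seen.

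Among the zinc transporters, all 11 importers at 1 FPKM or more lay within 2-fold in each comparison, and the Golgi transporter gene SLC30A6 stood at -1.88 with GNF5 in PC9, from 9.44 to 1.83 FPKM. Of the copper genes, the uptake channel SLC31A1 stood at 1.14 with GNF5 in H358, and the copper pump ATP7A, at 2.03 FPKM or less, at -1.08 with GNF5 in PC9. The glucocorticoid-induced regulator TSC22D3 stood at 1.37 in PC9 and 1.55 in PC9M with GNF5 but at -0.08 in H358. With the shRNAs it stood at -0.64 in PC9 and -1.14 in PC9M. The clock gene PER1 stood at 2.18 with GNF5 in PC9 and between -0.36 and 0.38 in the other comparisons. Over the 8 genes of the glucocorticoid list at 1 FPKM or more, the median with GNF5 in PC9 was 0.02. From the metal and thiol stress list, the cystine transporter SLC7A11 stood at -2.57 and the quinone reductase NQO1 at -1.25 with GNF5 in PC9. HMOX1 of that list, short of 2-fold, stood at 0.81 in this pair and at -0.78 with the shRNAs in PC9. The median of the list with GNF5 in PC9 was -0.39. No iron gene was 2-fold apart. With GNF5 in PC9 the list medians ran from -0.57 for zinc exporters to 0.46 for iron handling, beside a median of -0.10 over all genes. Of the neighbours of the cluster 1 of 10 was 2-fold apart in any comparison, HERPUD1, a part of endoplasmic reticulum degradation, at 1.95 with GNF5 in PC9M.

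The genes whose level followed the metallothionein sum most closely over the 10 libraries were MAPRE2, a microtubule end-binding protein, with a Pearson correlation of 0.993, PAPSS2, a sulfate-activating enzyme, with 0.991, FAM72B with 0.989, FAM116A with 0.989 and AZI1 with 0.987, of 11471 genes. MAPRE2, for example, ran from 0.0778 to 0.566 FPKM in PC9, from 3.44 to 5.76 in PC9M and from 6.20 to 6.73 in H358. MTF1 had a correlation of 0.735, and 2330 genes were closer. The libraries share 3 lines, so these values mostly order the lines.

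The cultures had the epithelial markers of their label: EPCAM, CDH1, KRT8, KRT18 and KRT19 summed to 5928 to 12604 FPKM in PC9, 5048 to 8065 in PC9M and 1970 to 2576 in H358. The sums are mostly keratin. CDH1, the epithelial cadherin, stood at -1.58 with GNF5 in PC9, from 67.0 to 21.7 FPKM, the pair in which MT1X was 2-fold apart, and between -0.75 and -0.16 in the other 4 comparisons. SFTPB, a surfactant protein gene, stood at -1.71 in that PC9 pair, from 15.2 to 3.95 FPKM. The lung markers NKX2-1, NAPSA and SFTPB were all under 1 FPKM in PC9M, and NKX2-1 was under 1 FPKM in PC9 too. Of 4 immune markers 1, CD14, passed 1 FPKM in any library, and the immune list summed to at most 2.66 FPKM. The stromal and endothelial list reached 24.9 FPKM in PC9, most of it PECAM1, at 23.2 FPKM with DMSO, 11.3 with GNF5 and 5.33 with scrambled shRNA, against at most 6.92 FPKM for the list in the other lines. The part of these differences between PC9 cultures in the ratios above was not tested. The sample numbers in the H358 table skip a number, so a further condition may have shared that run.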

How the data were processed

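RNA from 10 cultures was sequenced, and the authors aligned reads with TopHat and compared pairs of libraries with Cuffdiff on hg18, per the submitters' processing notes, with versions, annotation and strand not given in the sources used here. The deposited FPKM values were scaled by the authors within each of 5 pairs. The deposited q-values are Cuffdiff's, from 1 library against 1, per the file headers. Read depth is unknown, as the files give no counts, and no counting interval can be given.

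From the files, symbols turned into dates (28 per table) and a gene without an estimate were left out, and the rest was joined by symbol. Starts were moved to 1-based positions. The log2 ratio of FPKM plus a pseudocount of 1, which understates differences of low genes, was taken within each table. Genes with at least 1 FPKM in either library were counted at a 2-fold difference. The ratio and count were tested on simulated data. No statistical test was run. Coding sequences come from GENCODE release 29 and promoters from RefSeq (GRCh38.p14), and their coordinates were not converted to hg18.

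The members and lists were chosen with earlier results of these data known. Named genes are the members, list genes at least 2-fold apart whose higher library reaches 5 FPKM (up to 4 per list), and the 5 genes most alike in level. Other genes of the lists that are named were chosen after their values were seen. Python 3.11.15, numpy 2.4.6, pandas 2.3.3, scipy 1.17.1, Biopython 1.88 and matplotlib 3.10.9 were used.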

Additional observations from a re-analysis of the deposited data

Results flagged for a closer look

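MT1X was on opposite sides of its control in 2 lines under the same treatment, by at least 1.5-fold on each side in FPKM plus 1. With a pseudocount of 0.1 MT1A also was, at -0.68 with GNF5 in PC9M and 0.63 in H358. The log2 ratio of MT1X for GNF5 over DMSO was 1.64 in PC9 and -0.78 in PC9M. Each value compares 1 library with 1 library at a different labelled dose, and the difference was not tested.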

How the results depend on the processing

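Other pseudocounts (0.1 and 5), centring on the median of all genes, other minimum levels (none and 5 FPKM), a sum over MT1 genes only and a sum over every metallothionein entry were tried. No direction of a 2-fold difference was reversed, but among members and sums only MT1X with GNF5 in PC9 began past 2-fold. Some ratios near 0 changed sign when centred. With GNF5 in H358, MT1F went from -0.08 to 0.11, MT1G from -0.03 to 0.16 and MTF1 from -0.01 to 0.18. MT1G with the shRNAs in PC9M also changed sign. The H358 sum went from -0.23 to -0.03. Of 25 values of the sum under these alternatives, 22 stayed on the same side of 2-fold. The sum with GNF5 in PC9, at 0.95, passed 2-fold when centred (1.05) and over MT1 genes only (1.61), and the sum with the shRNAs in PC9, at 0.92, passed it when centred (1.01). The count of members at least 2-fold higher with the shRNAs in PC9 moved from 0 to 1 with a pseudocount of 0.1 (MT1F at 1.41) and to 1 when centred (MT2A at 1.08). Of 81 values of single members, 79 stayed on their side of 2-fold, these 2 being the others. With no minimum level the share of genes 2-fold apart fell, for example from 5.17% to 2.67% for higher genes with GNF5 in PC9, because genes near 0 enter. No paired analysis was possible because each group holds 1 library and the labels number no replicates. The unknown read depth limits what can be read from members under 1 FPKM.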

Other observations

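Other metallothionein entries that reached 1 FPKM in a library were MT1DP and MT1JP, whose symbols mark them as pseudogenes. MT1DP was listed at 3.13 FPKM in PC9M with DMSO and at 0.941, 0.881 and 0.669 FPKM with GNF5, scrambled shRNA and ABL1/ABL2 shRNAs, so the DMSO library alone was high. It was listed at 0 in the 4 PC9 libraries. MT1JP was listed at 3.93 FPKM in H358 with DMSO and 2.47 FPKM with GNF5, and at most at 0.160 FPKM in PC9 and PC9M, the order of lines seen for MT1E, the second gene from it in the cluster.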
